A study of Mus musculus with 6 samples.

Results

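Neurotrophins are secreted growth factors that keep neurons alive and shape their synapses. The genes described here are Bdnf and Ntf3, which encode the ligands BDNF and neurotrophin-3, Ntrk2 and Ntrk3, which encode the receptor tyrosine kinases TrkB and TrkC, Ngfr, which encodes the p75 receptor, and Sort1, which encodes sortilin. They were chosen by name: a gene was taken where the array's annotation gives it a row with no other gene symbol, and where it has several such rows the row with the highest mean was used. This gave 5 of the 6 genes, each with 1 row, among 17858 genes measured this way. Ntf3 was not analysed here.

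RNA came from whole cerebellum of C57BL/6 mice at 2 ages, P7 (7 days after birth) and 6wk (6 weeks), with 3 arrays at each age and no treatment or altered allele named in the labels. It was depleted of ribosomal RNA and hybridised to Affymetrix mouse exon arrays. The series was made to relate expression to changes in 5-hydroxymethylcytosine during development, which is not measured by these arrays. The labels do not say whether the replicates came from separate animals, and the p-values therefore reflect the spread among these arrays alone, part of which may be technical.

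As background, BDNF binds TrkB and neurotrophin-3 binds TrkC, and the bound kinases signal to survival, growth and synaptic change through the Ras, phosphatidylinositol 3-kinase and phospholipase C routes. The p75 receptor binds all neurotrophins and, together with sortilin, their uncleaved precursors, and it can signal for cell death or, with Trk receptors, for survival. In the cerebellum, BDNF acts on granule neurons and their precursors, neurotrophin-3 and TrkC act in granule neuron and Purkinje cell development, and p75 is known from the proliferating external granule layer and from young Purkinje cells.

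Each row is on the log2 scale and can be read as the mean of several probe-set values along a gene. Counted was the smallest number of values whose mean gives the deposited figures, to within 0.05 of the fifth decimal. It was 14 for Bdnf, 31 for Ntrk2, 24 for Ntrk3, 30 for Sort1 and only 5 for Ngfr. A row therefore pools the transcripts of a gene. For Ntrk2 and Ntrk3 it does not separate the full-length kinase from the truncated receptor forms that lack it. For Bdnf it does not separate transcripts that begin at different start sites.

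RefSeq (GRCm38.p6) gives 7 Bdnf start sites, and the first and last windows upstream of them are printed to show what the Bdnf row pools, with the window upstream of Ngfr, the member that fell, for comparison. Each is the 250 bases before a start, 5′ to 3′ on the gene's strand, with every CpG (the letters CG) in capitals, since CpG is the dinucleotide in which 5-hydroxymethylcytosine mainly arises. The arrays do not measure these windows.
Bdnf, first start, chr2:109674450-109674699, plus strand: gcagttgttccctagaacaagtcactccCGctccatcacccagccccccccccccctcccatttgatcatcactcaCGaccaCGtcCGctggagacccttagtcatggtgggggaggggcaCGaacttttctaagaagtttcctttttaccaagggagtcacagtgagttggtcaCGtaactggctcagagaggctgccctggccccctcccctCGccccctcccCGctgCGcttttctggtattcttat
Bdnf, last start, chr2:109722671-109722920, plus strand: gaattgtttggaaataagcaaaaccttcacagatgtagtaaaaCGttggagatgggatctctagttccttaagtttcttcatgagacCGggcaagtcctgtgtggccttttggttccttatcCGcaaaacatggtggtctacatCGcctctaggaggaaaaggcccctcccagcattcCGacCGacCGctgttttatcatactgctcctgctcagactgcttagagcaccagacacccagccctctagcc
Ngfr, chr11:95587699-95587948, minus strand: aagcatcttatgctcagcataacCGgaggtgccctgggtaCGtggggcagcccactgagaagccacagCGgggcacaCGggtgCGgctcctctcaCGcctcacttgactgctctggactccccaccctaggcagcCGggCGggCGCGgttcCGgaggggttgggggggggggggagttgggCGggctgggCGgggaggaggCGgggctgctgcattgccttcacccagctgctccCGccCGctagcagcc
The 7 Bdnf windows held from 1 to 13 CpGs, with 9 in the first and 7 in the last. The Ngfr window held 16 and the Ntrk2 window 19. Among 32851 such windows the median was 6, 92.1% held at least 1 CpG, and 25.4% held at least as many as Ngfr. Windows matched 4 of the 6 genes: Bdnf, Ntf3, Ntrk2 and Ngfr.

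The P7 arrays differed in their levels of cell type markers, and these levels are given beside some of the results whose P7 values had the same order. Against P7 replicate 1, 13 of 15 measured granule neuron markers were lower in P7 replicate 2, with a median log2 difference of -2.35. Gabra6, a GABA-A subunit that marks granule neurons, had P7 values of 10.56, 4.91 and 9.36 (replicates 1, 2 and 3) against 12.25, 11.91 and 11.88 at 6wk. Against the same array, 13 of 15 markers of tissue next to the cerebellum, such as dopamine and serotonin neurons, were higher in P7 replicate 2, with a median of 0.94. The mean log2 level of that list was 7.42, 8.86 and 8.53 in the P7 arrays and 7.41, 7.91 and 7.68 in the 6wk arrays, and its lowest value on any array was 5.43. Slc6a3, the dopamine transporter, read 6.78, 10.76 and 9.84 at P7 and from 6.73 to 7.09 at 6wk. Unlike Slc6a3, Tph2 of the same list also varied among the 6wk arrays (5.66, 7.34 and 6.50 in replicates 1, 2 and 3). In both lists P7 replicate 3 lay between the others, with medians of -0.50 and 0.51 against P7 replicate 1. By mean level, 4 of 13 marker lists were lowest in P7 replicate 1 and highest in P7 replicate 2: neighbouring tissue, GABAergic interneurons (8.89, 9.21 and 9.13 in replicates 1, 2 and 3), oligodendrocyte precursors (9.48, 9.78 and 9.73) and microglia (7.93, 8.13 and 8.0). Another 6 had the reverse order: granule neurons, granule progenitors, Purkinje cells, astrocytes with Bergmann glia, choroid plexus and meninges. The order of the 4 lists was also that of Ntrk2, Ntf5, Lingo1, Bex3, Tnfrsf19, Pcsk5, Ptprf, Shc3, Sh2b3, Egr1, Arc, Rest and Bhlhe40. The reverse order was also that of Sort1, Sorl1, Nras, Ptpn11, Camk4, Hdac2 and Dusp4. No markers are set beside these genes below, and the part of cell types in their values was not tested. Over all rows, P7 replicate 3 correlated at 0.985 with replicate 1 and 0.977 with replicate 2, and those 2 at 0.952. Replicate 3 thus lay between the others across the array as well. How many of all genes had either order was not counted, so a shared order here or below is not read as a link to these cell types. Values without P7 replicate 2, and with P7 replicate 1 alone at P7, are given where they end or add a call or move a called value by over 1.5 times. The last alternative was added after seeing the data; it measures no spread at P7 and assumes that the lone array varies like the 6wk arrays. In whole tissue, fewer cells of a type and less RNA per cell cannot be told apart.

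Between the ages, Ntrk3 rose and Ngfr fell, while Bdnf, Ntrk2 and Sort1 did not pass the test. The test was limma's moderated comparison of 6wk with P7 across all 17858 genes, two-sided, with Benjamini-Hochberg adjustment and a threshold of 0.05. It called 2 of the 5 measured members, against 21.7% of all genes (8.26% higher and 13.4% lower at 6wk). Over all genes the direction of the calls changed with the scaling, from 1475 higher and 2395 lower to 2138 and 1781 after a further quantile normalization and to 2097 and 1704 after centring on array medians. Without P7 replicate 2 it again called 2 of the 5, against 26.8% of all genes, and with P7 replicate 1 alone 3 of the 5, against 22.6%. The plot of the 5 genes by array shows that the ages did not overlap for these 2 genes, as was the case for 42.1% of all genes, and overlapped for the other 3.

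**Figure D1:**
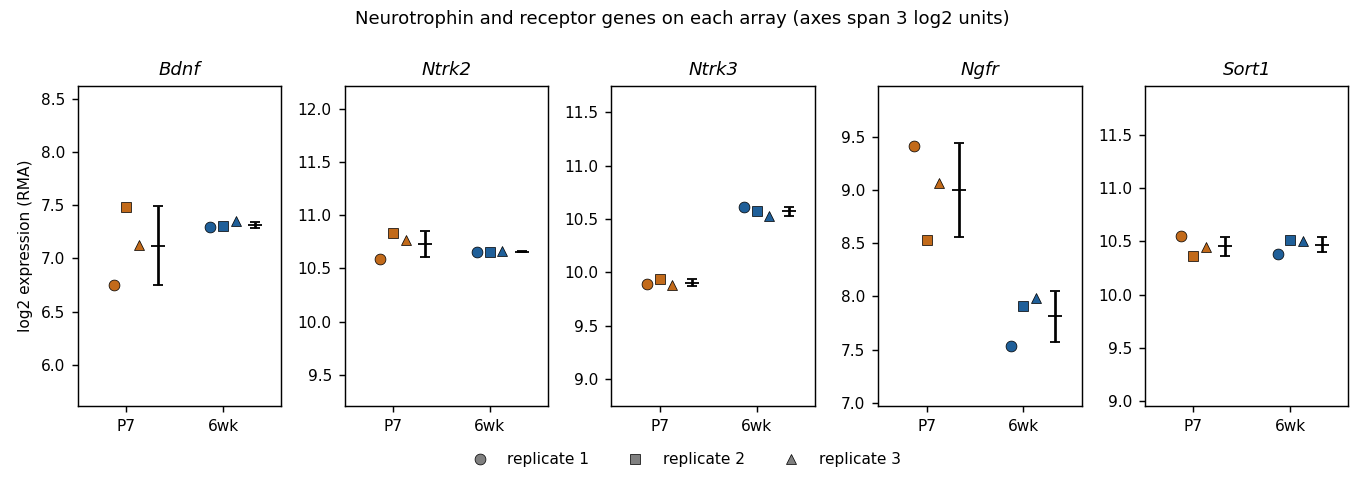
Log2 expression (RMA) of the 5 measured genes on each array at P7 and 6wk; symbols give the replicate, and the black mark and bar give the mean and SD of 3 arrays. Each axis spans 3 log2 units, so the distances can be compared between genes but the levels cannot. Ntrk3 is higher and Ngfr lower on every 6wk array than on any P7 array, and the 3 P7 arrays of Bdnf lie on both sides of its 6wk arrays.

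Among the ligands, Bdnf read 6.75, 7.48 and 7.13 in P7 replicates 1, 2 and 3, and 7.29, 7.3 and 7.35 in the 6wk replicates. The 6wk arrays lay within 0.05 of one another on the log2 scale, whereas the P7 arrays spanned 0.73, with replicate 1 below and replicate 2 above all 6wk arrays. The means were 7.12 ± 0.37 (SD, n = 3) and 7.31 ± 0.03 (SD, n = 3). The log2 difference was 0.19 (95% interval -0.25 to 0.63, limma adjusted p = 0.506), so a change of the size seen in Ntrk3 lay just outside the interval. Within P7, Bdnf had the order of the markers of neighbouring tissue, interneurons, oligodendrocyte precursors and microglia, lowest in replicate 1 and highest in replicate 2; the part of these cells in the Bdnf values was not tested. Without P7 replicate 2 the difference was 0.37 (limma adjusted p = 0.0834). With P7 replicate 1 alone at P7 it was 0.56 (limma adjusted p = 0.0198), so whether Bdnf passed depended on which P7 arrays were used. The Bdnf row lay low on the array, at percentile 26.7 of genes by mean level.

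Ntf5, which encodes neurotrophin-4, the other ligand of TrkB, read 7.04, 7.37 and 7.08 at P7 and 7.12, 6.80 and 7.21 at 6wk. The ages overlapped, and the log2 difference of -0.12 (95% interval -0.48 to 0.23, limma adjusted p = 0.607) did not pass. The Ntf5 row lay low, at percentile 23.3 of genes by mean level, and can be read as the mean of only 4 probe-set values. These limit what the result says about Ntf5.

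Of the Trk receptors, Ntrk3 gave the firmest change of the set. It read 9.89, 9.94 and 9.88 in P7 replicates 1, 2 and 3, and 10.61, 10.57 and 10.53 in the 6wk replicates. The arrays of an age lay within 0.09 of one another, including P7 replicate 2, and every 6wk array was higher. Ntrk3 rose by 0.67 on the log2 scale, from 9.90 ± 0.03 to 10.57 ± 0.04 (SD, n = 3; SE of the difference 0.08, 95% interval 0.48 to 0.85, limma adjusted p = 0.00268), or 1.59-fold on the scale of the deposited values. The call held in all 6 fits that leave out an array (differences from 0.65 to 0.69, limma adjusted p from 0.00297 to 0.0244), and with P7 replicate 1 alone the difference was 0.68.

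Ntrk2 read 10.59, 10.83 and 10.77 at P7 and 10.65, 10.65 and 10.66 at 6wk. As for Bdnf, the 6wk arrays were nearly equal, and P7 replicate 1 was the lowest and P7 replicate 2 the highest of the 6 arrays. The means were 10.73 ± 0.12 (SD, n = 3) and 10.66 ± 0.01 (SD, n = 3), and the log2 difference was -0.07 (95% interval -0.29 to 0.15, limma adjusted p = 0.633). Its sign turned to 0.03 and 0.05 when the arrays were centred on their medians or quantile normalized again. Ntrk2 was at percentile 96.3 of genes by mean level, so its row was not a dim one.

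The difference between the Trk rows within each array does not depend on how arrays are scaled as a whole. Ntrk2 minus Ntrk3 was 0.70, 0.89 and 0.89 in P7 replicates 1, 2 and 3, and 0.04, 0.08 and 0.14 in the 6wk replicates. These are differences between rows with different probes, so only their change carries meaning. The groups did not overlap, and the within-array difference was lower at 6wk by a change of -0.74 (means 0.83 ± 0.11 and 0.09 ± 0.05, SD, n = 3). An exact permutation test over the 6 arrays, two-sided, gave p = 0.10, which is the smallest that 3 against 3 arrays allow. The same comparison of Bdnf with Ntf3 could not be made.

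Ngfr read 9.41, 8.53 and 9.07 in P7 replicates 1, 2 and 3, and 7.54, 7.91 and 7.99 in the 6wk replicates. Every 6wk array was lower than every P7 array, but both ages had more spread than for Ntrk3, and P7 replicate 2 was the lowest P7 array. Ngfr fell by 1.19 on the log2 scale, from 9.0 ± 0.44 to 7.81 ± 0.24 (SD, n = 3; SE of the difference 0.24, 95% interval -1.76 to -0.61, limma adjusted p = 0.0172). P7 was 2.28-fold above 6wk on the scale of the deposited values. It no longer passed when P7 replicate 3 was left out (limma adjusted p = 0.0713), nor when 6wk replicate 1, 2 or 3 was (0.0655, 0.0558 and 0.0508), while the difference stayed between -1.42 and -0.98 in all 6 fits.

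The order of the P7 arrays for Ngfr was the reverse of that for Bdnf and the same as that for 6 of the 13 marker lists. Among these, the medians in P7 replicate 2 against P7 replicate 1 were -2.35 for granule neurons, -1.48 for granule progenitors and -0.65 for Purkinje cells. They were -0.38 for astrocytes with Bergmann glia, -0.78 for choroid plexus and -0.52 for meninges. Atoh1, the transcription factor of granule progenitors, read 8.47, 6.53 and 8.04 in P7 replicates 1, 2 and 3, and from 6.44 to 6.62 at 6wk. Its log2 difference between the ages of -1.14 did not pass (limma adjusted p = 0.139). Of 13 measured granule progenitor markers 6 fell, 1 rose (Ptch1) and 6 did not pass, or 53.8% called against 21.7% of all genes. Without P7 replicate 2 the fall in Ngfr was larger (log2 difference -1.42, limma adjusted p = 0.00314), and with P7 replicate 1 alone it was -1.59 (limma adjusted p = 0.0125). The part of these cell types in the Ngfr values was not tested.

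**Figure D2:**
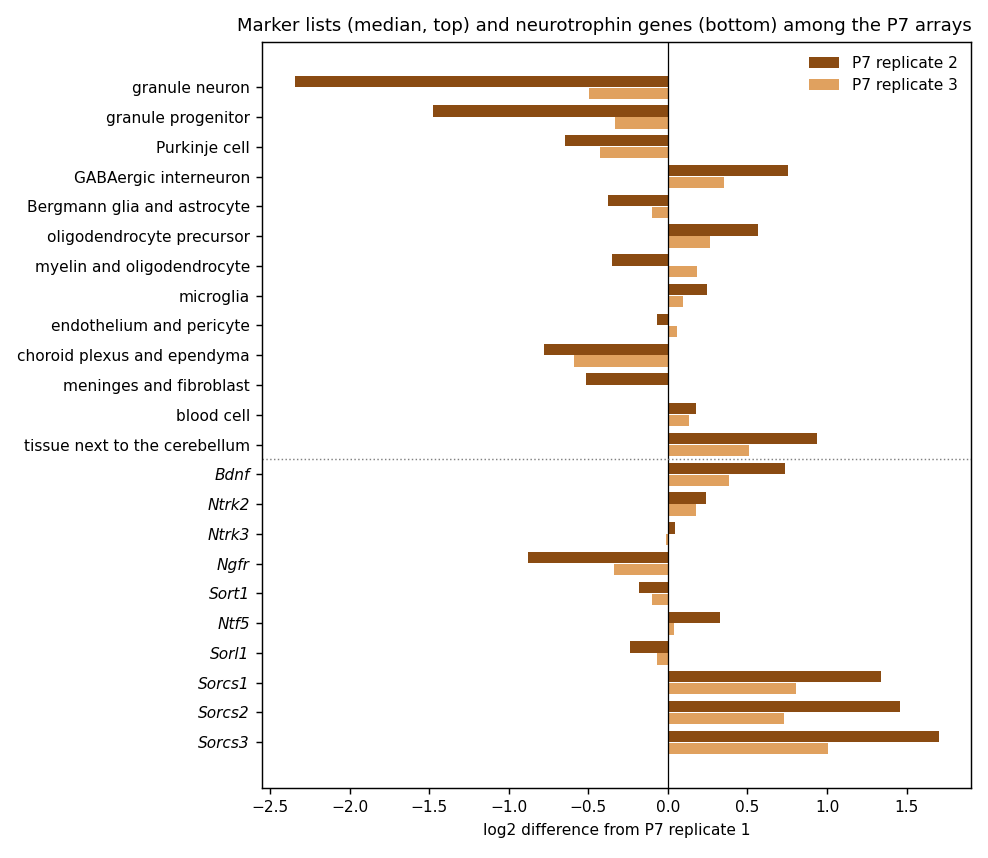
Log2 difference of P7 replicate 2 (dark) and P7 replicate 3 (light) from P7 replicate 1, as the median over each list of cell type markers (above the dotted line) and for single genes (below it). Granule neuron markers lie at -2.35 in replicate 2; Ngfr lies on the same side at -0.88, Bdnf on the other side at 0.73, and Ntrk3 near 0 at 0.05.

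Sort1 read 10.54, 10.36 and 10.44 at P7 and 10.38, 10.51 and 10.50 at 6wk. All 6 arrays lay within 0.18 of one another and the ages overlapped fully. The log2 difference was 0.01 (95% interval -0.20 to 0.23, limma adjusted p = 0.929), an interval that leaves out a change as large as that of Ntrk3 or Ngfr in either direction.

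Sort1 belongs to a family of sorting receptors with a Vps10p domain, whose other members Sorl1, Sorcs1, Sorcs2 and Sorcs3 are known to bind or traffic neurotrophins, their precursors or Trk receptors. Sorl1, which moves cargo such as the amyloid precursor protein and TrkB between membranes, read 9.42, 9.19 and 9.35 at P7 and 11.03, 10.90 and 11.00 at 6wk. The ages lay far apart compared with the spread within each. Sorl1 rose by 1.66 on the log2 scale (SE 0.10, limma adjusted p = 0.000606), or 3.15-fold, and the call held in all 6 fits that leave out an array (differences from 1.59 to 1.71).

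The Sorcs genes varied mainly among the P7 arrays. Sorcs1 read 7.22, 8.56 and 8.03 in P7 replicates 1, 2 and 3 and from 6.98 to 7.46 at 6wk, a log2 difference of -0.64 that did not pass (limma adjusted p = 0.231). Sorcs2, a receptor for the BDNF precursor together with p75, read 8.01, 9.47 and 8.73 at P7 and from 7.66 to 7.98 at 6wk. Its groups did not overlap, and its difference of -0.90 did not pass (limma adjusted p = 0.117). Sorcs3 read 7.94, 9.64 and 8.95 at P7 and from 8.64 to 8.86 at 6wk, a difference of -0.08 (limma adjusted p = 0.907).

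Among the P7 arrays, all 3 were lowest in replicate 1 and highest in replicate 2, as were the mean levels of the markers of neighbouring tissue, interneurons, oligodendrocyte precursors and microglia; the part of these cells in the Sorcs values was not tested. Sorcs3 is itself 1 of the 11 measured interneuron markers, and the other 10 had the same order without it (8.99, 9.17 and 9.15 in P7 replicates 1, 2 and 3). With P7 replicate 1 alone at P7 the differences were 0.08 for Sorcs1, -0.17 for Sorcs2 and 0.82 for Sorcs3 (limma adjusted p = 0.842, 0.472 and 0.0164), so that Sorcs3 turned from a difference near 0 to a rise. Without P7 replicate 1, Sorcs1 and Sorcs2 passed as lower at 6wk, with limma adjusted p of 0.0262 and 0.0150. Nradd, which encodes a death domain protein related to p75, differed by -0.30 and did not pass (limma adjusted p = 0.0784), although its groups did not overlap.

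**Figure D3:**
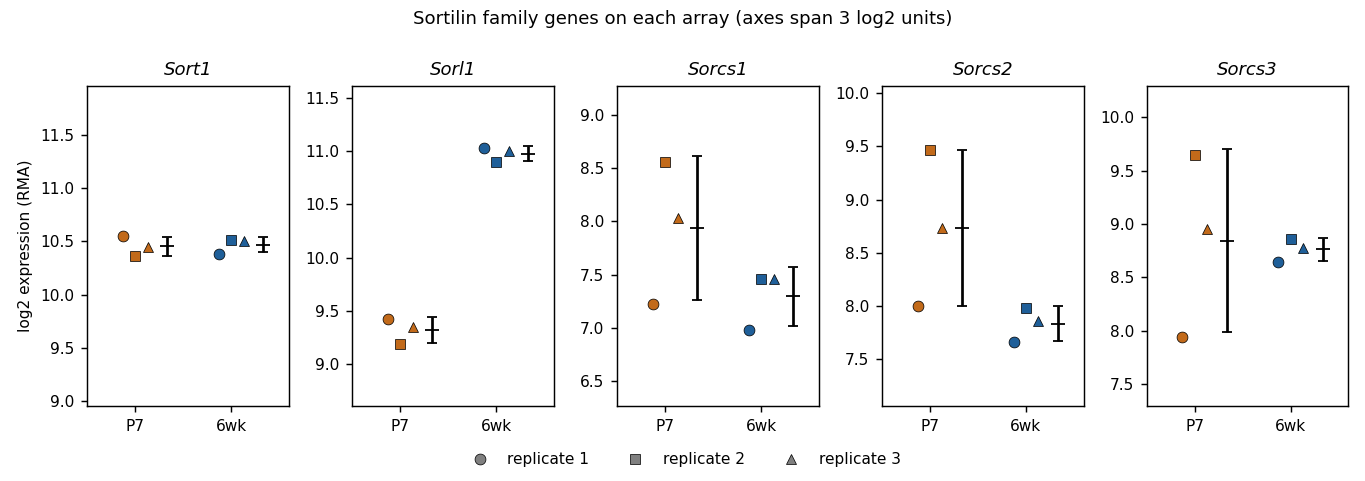
Log2 expression (RMA) of the sortilin family on each array at P7 and 6wk; symbols give the replicate, and the black mark and bar give the mean and SD of 3 arrays, on axes that each span 3 log2 units. Sorl1 is separated by age, Sort1 overlaps, and the Sorcs genes are spread over the P7 arrays, with replicate 1 lowest and replicate 2 highest.

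The wider pathway was read from 8 lists beside the members, with 121 measured genes of 140 in all. Of these genes, 10 rose, 26 fell and 85 did not pass, which makes 29.8% called against 21.7% of all genes. Their median log2 difference was -0.16, against -0.05 for all genes. How many rose or fell changed with the scaling: after a further quantile normalization 16 rose and 15 fell, and after centring on array medians 15 rose and 15 fell. Without P7 replicate 2 there were 12 rises and 32 falls, and with P7 replicate 1 alone 14 and 21. Of the 36 genes called with all arrays, 34 were also called in the same direction without P7 replicate 2, 27 with P7 replicate 1 alone and 14 whichever of the 6 arrays was left out. How many of the calls over all genes held in this way was not counted, so no reading of the pathway's stability is drawn. Without P7 replicate 2 the share called was 36.4% of the pathway genes and 26.8% of all genes. Leaving out P7 replicate 3 or 6wk replicate 1, 2 or 3 lowered the pathway's calls to 15, 18, 22 and 17. The calls of all genes fell to 9.22%, 10.8%, 11.3% and 9.75%.

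Of 47 measured genes of Trk adaptors and downstream signalling, 2 rose, 14 fell and 31 did not pass (median -0.18). This made 34.0% called, against 21.7% of all genes, and after quantile normalization 6 rose and 9 fell. The 16 calls came down to 6 without P7 replicate 3, 7 without 6wk replicate 1 or 3 and 10 without 6wk replicate 2. These were 12.8%, 14.9% and 21.3% of the list. In the same fits the calls of all genes also came down, to between 9.22% and 11.3%. Nras, a Ras GTPase that Trk receptors activate, fell by 0.88 on the log2 scale (SE 0.09, limma adjusted p = 0.00205), from 10.11 ± 0.12 to 9.23 ± 0.03 (SD, n = 3), and was called in all 6 fits that leave out an array. Shc3, a neuronal Shc adaptor of Trk receptors, differed by -0.92 and Ptprf, a receptor tyrosine phosphatase, by -1.13. Neither was stable: Shc3 lost its call without P7 replicate 3, 6wk replicate 1 or 6wk replicate 3 (limma adjusted p up to 0.0714), and Ptprf without P7 replicate 3 or 6wk replicate 1 (up to 0.0604). With P7 replicate 1 alone Shc3 differed by -0.68 and did not pass (limma adjusted p = 0.122), and Ptprf differed by -0.70 (0.0459). Sh2b3, the adaptor Lnk, rose by 0.74 (limma adjusted p = 0.00320) and was called in all 6 fits. Ptpn11, the phosphatase Shp2, differed by 0.30 and kept its call in only 1 of the 6, the fit without P7 replicate 1, with limma adjusted p up to 0.148; with P7 replicate 1 alone it did not pass either (0.27, limma adjusted p = 0.108).

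Of 12 measured genes whose products work with p75, 5 fell and 0 rose (median -0.28), which made 41.7% called, against 21.7% of all genes, 13.4% of them lower. After quantile normalization 3 fell and 1 rose. The 5 calls came down to 2 (16.7%) without P7 replicate 3 and to 3 (25%) without any one of the 6wk arrays. The calls of all genes came down to between 9.22% and 11.3% in these fits. Lingo1, a partner of p75 in the receptor complex for myelin inhibitors, read 9.55, 9.81 and 9.69 at P7 and 8.72, 8.88 and 8.91 at 6wk, and it fell by 0.85 (SE 0.10, limma adjusted p = 0.00337). Bex3, a protein that binds the p75 death domain, read 12.26, 12.39 and 12.30 at P7 and 11.56, 11.73 and 11.59 at 6wk, and it fell by 0.69 (limma adjusted p = 0.00384). Lingo1 and Bex3 were separated by age on every array and were called in all 6 fits that leave out an array. Tnfrsf19, a receptor of the same family as p75, differed by -0.63; it stopped passing on omission of P7 replicate 3 or of a 6wk array (limma adjusted p up to 0.112), and with P7 replicate 1 alone (-0.35, limma adjusted p = 0.0802).

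Of 14 measured genes of proneurotrophin processing and release, 1 rose, 1 fell and 12 did not pass (median -0.13). The share called was 14.3%, against 21.7% of all genes. Without P7 replicate 2 there were 4 calls, or 28.6%, against 26.8% of all genes. The called genes are both proprotein convertases, the enzymes that cut precursors at basic residues. Pcsk6 read 9.37, 8.22 and 8.72 at P7 and 10.46, 10.24 and 10.30 at 6wk, and it rose by 1.56 (SE 0.28, limma adjusted p = 0.0108). Its P7 arrays had the order of the 6 marker lists led by granule neurons, and with P7 replicate 1 alone its rise was 0.97 (limma adjusted p = 0.0126). Pcsk5 read 7.52, 7.96 and 7.70 at P7 and 6.81, 6.86 and 6.90 at 6wk, and it fell by 0.87 (SE 0.13, limma adjusted p = 0.00568). Both calls held in all 6 fits that leave out an array, for Pcsk6 with an adjusted p as high as 0.0498.

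Of 14 measured genes that neuronal activity or Trk signalling induces, 2 rose, 4 fell and 8 did not pass (median 0.01), which made 42.9% called, against 21.7% of all genes. After centring on array medians 2 rose and 1 fell. The 6 calls came down to 0 without 6wk replicate 3, 1 without P7 replicate 3 or 6wk replicate 1 and 2 without 6wk replicate 2. These were 0%, 7.14% and 14.3% of the list, beside between 9.22% and 11.3% of all genes in the same fits. Egr1, an immediate early transcription factor, differed by 0.79 (limma adjusted p = 0.0244) and Arc, an immediate early gene of synapses, by 0.44 (limma adjusted p = 0.0376). Without P7 replicate 2 they differed by 0.99 and 0.54 (limma adjusted p = 0.00177 and 0.00891). Egr1 stopped passing on omission of P7 replicate 3 or of a 6wk array (up to 0.0971), and Arc on omission of any array other than P7 replicate 2 (up to 0.134).

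Spry1, a feedback inhibitor of receptor tyrosine kinases, fell by 0.59 (limma adjusted p = 0.0118), a call that was lost without 6wk replicate 3 (0.0599). Nptx2, a secreted neuronal pentraxin, differed by -1.36 and read 7.55, 9.09 and 8.29 in P7 replicates 1, 2 and 3, the order of the 4 marker lists led by neighbouring tissue. Its difference was -0.60 with P7 replicate 1 alone (limma adjusted p = 0.0496), and it stopped passing on omission of P7 replicate 3 or of a 6wk array (up to 0.132). Dusp4, a phosphatase that switches off MAP kinases, differed by -0.91 and kept its call in only 1 of the 6 fits, that without P7 replicate 2 (-1.18, limma adjusted p = 0.00420); with P7 replicate 1 alone it differed by -1.39 (0.00875).

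Of 14 measured regulators of Bdnf transcription 3 rose, 2 fell and 9 did not pass (median 0.07). This made 35.7% called, against 21.7% of all genes. After quantile normalization 4 rose and 0 fell. The 5 calls came down to 2 (14.3%) without P7 replicate 3 and to 3 (21.4%) without any one of the 6wk arrays. The calls of all genes came down to between 9.22% and 11.3% in these fits. Bhlhe40, a basic helix-loop-helix repressor that binds a Bdnf promoter in rodent neurons, read 7.49, 7.91 and 7.69 at P7 and 9.41, 9.34 and 9.31 at 6wk. It rose by 1.65 (SE 0.12, limma adjusted p = 0.000761), or 3.15-fold. Camk4, a nuclear calcium kinase that activates CREB, rose by 0.86 (limma adjusted p = 0.00851), and both were called in all 6 fits that leave out an array. Crtc1, a CREB coactivator, rose by 0.47 (limma adjusted p = 0.00817), a call lost without P7 replicate 3 (0.0529). Hdac2, a histone deacetylase, and Rest, a repressor of neuronal genes, differed by -0.82 and -0.33, and each stopped passing on omission of P7 replicate 3 or of a 6wk array, Hdac2 also without P7 replicate 1 (limma adjusted p up to 0.147 and 0.127). Rest did not pass with P7 replicate 1 alone (-0.26, limma adjusted p = 0.113). Hdac2 differed by -1.07 without P7 replicate 2 (limma adjusted p = 0.00211).

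Among 15 measured genes of the GDNF and CNTF families, other neurotrophic ligands and receptors, 1 rose and 0 fell (median -0.14). The share called was 6.67%, against 21.7% of all genes. Without P7 replicate 1 there were 3 calls (20%, against 26.3%), and without P7 replicate 2 there were 2 (13.3%, against 26.8%). The rise was in Cntfr, the receptor subunit for ciliary neurotrophic factor, which read 10.56, 10.58 and 10.53 at P7 and 11.09, 11.13 and 11.04 at 6wk. Its log2 difference of 0.53 (SE 0.08, limma adjusted p = 0.00573) held in all 6 fits. The remaining 14 did not pass. In P7 replicate 2, 14 of the 15 genes were higher than in P7 replicate 1, with a median log2 difference of 0.42. With the replicate number as a block, 4 of the 15 were called (26.7%), against 3273 of all 17858 genes. The low share called is therefore not read as a lack of change with age.

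**Figure D4:**
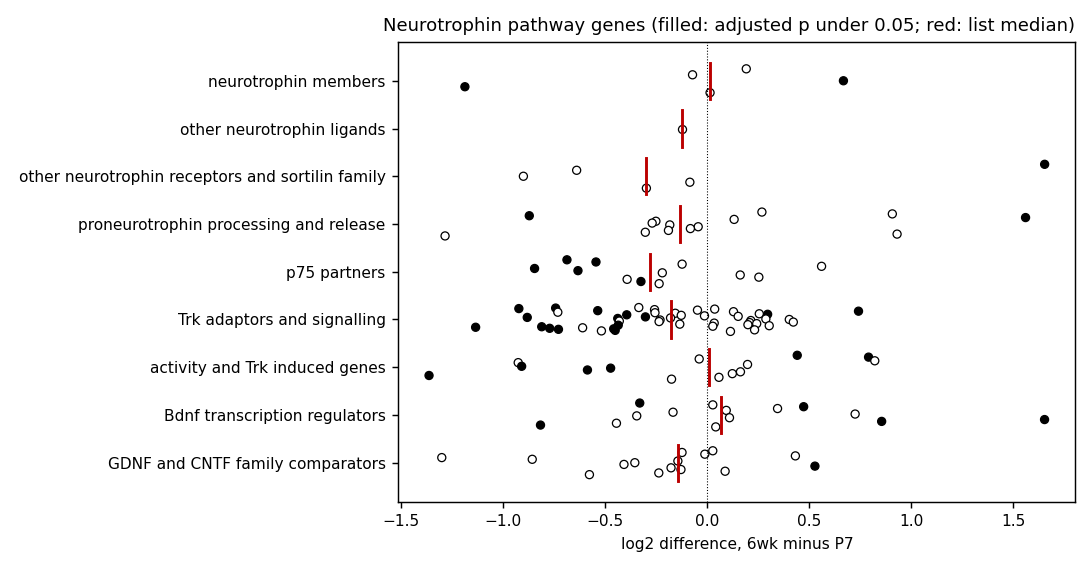
Log2 difference (6wk minus P7) of each measured gene of the members and of the 8 other lists; filled points have a limma adjusted p under 0.05, and the red line is the list median. Sorl1, Bhlhe40 and Pcsk6 lie farthest to the right of the called genes, and the called p75 partners lie below 0.

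The genes with the most similar course over the 6 arrays were found for each member by Pearson's r among genes whose SD was between 0.5 and 2 times its own; these are descriptions of 6 arrays that share their tissue samples, and the choice largely fixes how the chosen genes differ between the ages. For Ntrk3 they were Pacsin3, Nr1d2 and Galnt13, with r of 0.9997, 0.9996 and 0.9996, and their log2 differences were 0.78, 1.12 and 1.30. For Ngfr they were Gfap, H2ax and Pdgfc (r = 0.999, 0.997 and 0.997), with log2 differences of -0.84, -1.41 and -0.94. Gfap, the intermediate filament of astrocytes, read 10.92, 10.24 and 10.65 at P7 and 9.58, 9.84 and 9.86 at 6wk.

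For Bdnf they were Spock2, Fuca2 and Zfr2, for Ntrk2 Sardh, Ccl22 and Prss30, and for Sort1 Agpat3, Tmem167b and 1110032A03Rik. Many genes had nearly the same course as Ngfr or Ntrk3: an r over 0.95 was reached with Ngfr by 366 of the 4040 genes compared (9.06%), and with Ntrk3 by 588 of 9988 (5.89%). It was reached with Bdnf by 129 of 12390 (1.04%), with Ntrk2 by 45 of 6234 (0.722%) and with Sort1 by 13 of 4486 (0.290%).

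**Figure D5:**
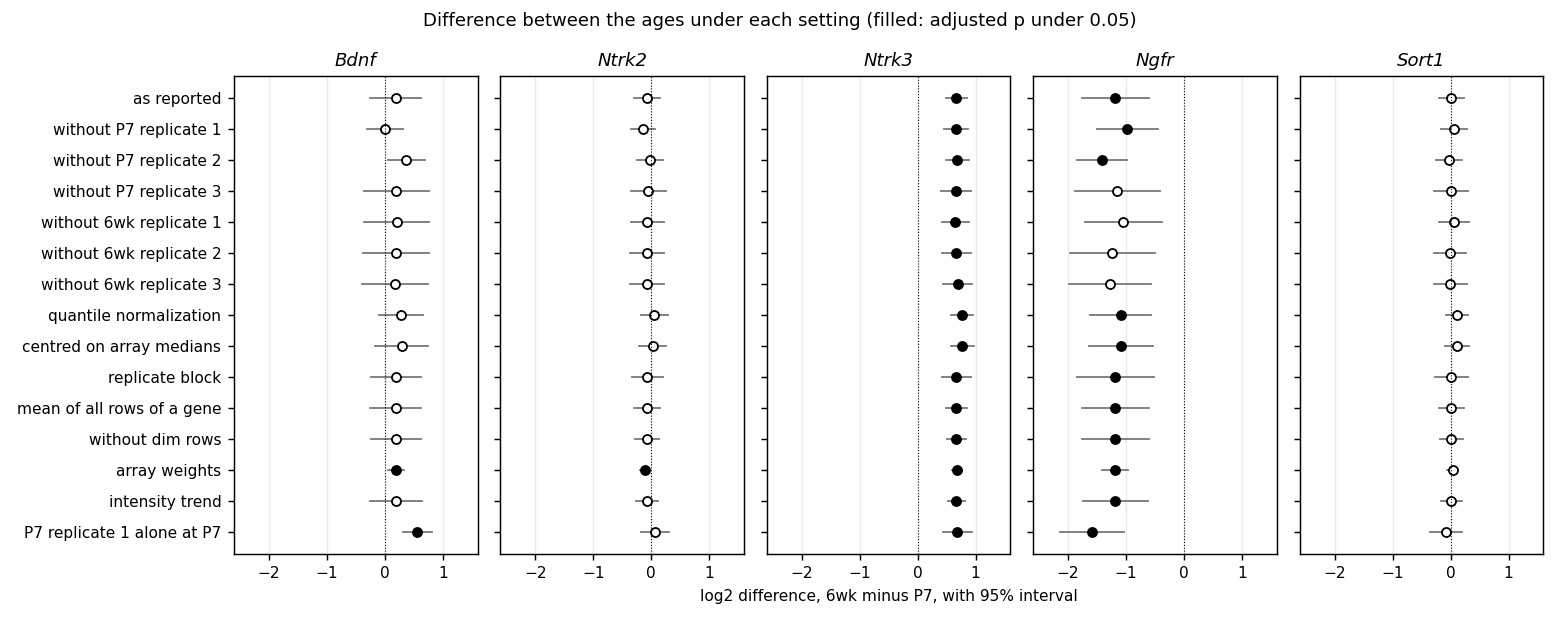
Log2 difference (6wk minus P7) of the 5 genes with its 95% interval under the reported fit and each alternative; filled points have a limma adjusted p under 0.05. Ntrk3 is filled in every row, Ngfr in all but those without P7 replicate 3 or a 6wk array, and Bdnf only with array weights and with P7 replicate 1 alone.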

How the data were processed

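Total RNA of mouse cerebellum was extracted, depleted of ribosomal RNA, labelled as sense-strand cDNA and hybridised to Affymetrix exon arrays, per the labels' protocols. The authors deposited log2 values. The submitters' processing notes name RMA (background correction, normalization between arrays, probe summary), Affymetrix Power Tools and mm9, without versions; filters were not given in the sources used here.

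The table has 23750 rows, of which 18463 have 1 gene symbol, 1799 several and 3488 none; a RefSeq table (GRCm38.p6) changed 0 symbols. The row with the highest mean per gene left 17858 genes. The array medians ran from 7.82 to 7.97; the number of arrays limits the precision. The labels' ages set the groups.

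limma 3.58.1 (R 4.3.3) compared 6wk with P7 with no block, Benjamini-Hochberg adjusted over 17858 genes and called under 0.05. Steps were tested on simulated data. The members and lists were chosen with earlier results of these data known. Named genes were the members, the other ligands, receptors and sortilins, and up to 3 called rises and falls per list; markers were named for the arrays that stand apart. Alternatives were other scalings, filters, weights and arrays left out.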

Additional observations from a re-analysis of the deposited data

How the results depend on the processing

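Ntrk3 kept its direction and its call under all 14 alternatives, with differences from 0.65 to 0.77, and Ntrk2 minus Ntrk3 ran from -0.80 to -0.71 under its alternatives. Ngfr kept its direction under all 14, from -1.59 to -0.98, and lost its call on leaving out 4 of the 6 arrays in turn; over those 6 fits it ran from -1.42 to -0.98. Bdnf passed with array weights (0.19) and with P7 replicate 1 alone (0.56). Ntrk2 passed with array weights (-0.11) and turned sign when centred on array medians (0.0264), quantile normalized (0.0543) and with P7 replicate 1 alone (0.0660). Sort1 turned to -0.0788 with P7 replicate 1 alone and ran from -0.0281 to 0.0617 with an array left out. Ntf5 turned to 0.000995 with P7 replicate 1 alone and ran from -0.20 to 0.00105 with an array left out. With P7 replicate 1 alone Sorcs1 turned to 0.0754 and Sorcs3 to 0.82; Sorcs3 also turned to 0.0133 when centred, and ran from -0.54 to 0.32 with an array left out. The cause of these changes was not tested.

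The test called 3870 genes with all arrays, 11358 with array weights and from 1647 to 4781 with an array left out. Of the pathway genes it called 36, 93 with array weights, and from 15 to 44 with an array left out. The array weights did not converge and put a weight of 341 on P7 replicate 3 against at most 1.00 on the others, so those values are of little use.

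The deviations of same-numbered samples from their group means correlated at 0.27, 0.14 and -0.06 for replicates 1, 2 and 3. The 0.27 was the highest of any P7 array with a 6wk array, while P7 replicate 2 went best with 6wk replicate 3 (0.21). Deviations from a mean of 3 arrays are tied to one another, so these correlations cannot settle whether the samples pair. The replicate block lowered the calls from 3870 to 3273, and Ngfr (-1.19, adjusted p = 0.0401) and Ntrk3 (0.67, 0.0155) kept theirs; of the other named genes 4 lost theirs (Arc, Dusp4, Ptpn11 and Rest). The differences within arrays were not run for Bdnf with Ntf3, nor Ntf3 alone; Ntf5 is too dim for the fit without dim rows.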
